A study of Mus musculus with 36 samples.

Results

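The family of miR-15, miR-16, miR-195 and miR-497 was followed in small RNA sequencing of mouse kidneys through 6 mature microRNAs (miRNAs), chosen by name from the 1915 mature miRNAs counted in the study. The members are mmu-miR-16-5p, mmu-miR-15a-5p, mmu-miR-15b-5p, mmu-miR-195a-5p and mmu-miR-497a-5p, which are the main strands of their hairpins, and mmu-miR-15b-3p, the other strand of the miR-15b hairpin. The prefix for the mouse is left out from here on. Where a miRNA was listed under several hairpins, the entry with the highest total was kept. All 6 members passed the filter on low counts in every comparison.

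The libraries came from kidneys of C57BL/6 mice of the genotype Pkd1f/f or Pkd2f/f, in which exons of Pkd1 or Pkd2 are flanked by loxP sites on both alleles. In the KO groups the HoxB7-Cre transgene deletes the floxed gene in the collecting duct, whose epithelium forms the cysts, and in the WT groups the same floxed alleles were carried without Cre, so WT animals are not free of the floxed allele. Animals were 1, 3 or 7 days old (written P1, P3 and P7, for postnatal day), and 3 libraries for every combination of model, genotype and age gave 36 libraries in 12 groups. The whole kidney was used, and Cre acts in the collecting duct lineage, so the other cell types of a KO kidney kept the gene. In such bulk samples fewer cells of a type and less miRNA per cell cannot be told apart. The labels number the replicates but do not say that each came from a separate animal, and p-values measure the spread between these libraries.

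Mature miRNAs guide Argonaute proteins to messenger RNAs that pair with the seed, the bases 2 to 8 of the miRNA, and lower the stability and translation of those messengers. miR-15 and miR-16 are known as brakes on the cell cycle and on survival, with cyclins and the survival factor Bcl2 among their best studied targets. The miR-497 and miR-195a hairpins make a further pair with the same seed and are known for a rise after birth in the heart, where miR-195 takes part in the cell cycle exit of cardiac muscle cells. Excess proliferation of tubule epithelium is a hallmark of polycystic kidney disease.

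The mature sequences below, taken from RefSeq on the build GRCm38.p6, are shown because the shared seed defines the family and the bases behind it separate its members in sequencing. Capitals mark the seed.

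miR-16-5p: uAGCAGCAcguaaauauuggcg
miR-195a-5p: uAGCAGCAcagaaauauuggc
miR-15a-5p: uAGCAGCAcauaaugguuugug
miR-15b-5p: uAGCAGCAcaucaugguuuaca
miR-497a-5p: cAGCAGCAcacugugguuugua
miR-15b-3p: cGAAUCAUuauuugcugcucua

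The seed AGCAGCA was identical in the 5 main strands. Aligned without gaps from the first base, these 5 were the same at 10 of 21 positions, and bases 2 to 9 formed an unbroken shared run. miR-16-5p and miR-195a-5p were the closest, with 19 of 21 positions identical and the substitutions G10A and U11G between them, counted from the 5′ end with the base of miR-16-5p first. miR-16-5p and miR-497a-5p were the farthest apart, with 11 of 22 positions identical. miR-15b-3p carries the unrelated seed GAAUCAU, which no other mature miRNA of the table with a reference sequence shared, so it is a member by its hairpin and not by its seed.

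The hairpins lie in 3 pairs. Mir16-1 (chr14:61631880-61631972) and Mir15a (chr14:61632027-61632110) are 54 bases apart on the minus strand, within the long non-coding gene Dleu2. In the GENCODE M21 annotation of the same build, Mir15a falls in a Dleu2 intron, and Mir16-1 overlaps an annotated Dleu2 exon. Mir15b (chr3:69009772-69009835) and Mir16-2 (chr3:69009902-69009996) are 66 bases apart on the plus strand, in an intron of Smc4, which encodes a condensin subunit needed for chromosome condensation. Mir497 (chr11:70234717-70234800) and Mir195a (chr11:70235042-70235135) are 241 bases apart on the plus strand. Mir195a overlapped no other annotated gene, and Mir497 overlapped Mir497b, a miRNA gene on the opposite strand.

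The hairpins of miR-16 are shown because both hold the same mature strand, given in capitals, within sequences that otherwise differ at many bases, and that strand cannot be assigned to a locus from its reads.

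Mir16-1: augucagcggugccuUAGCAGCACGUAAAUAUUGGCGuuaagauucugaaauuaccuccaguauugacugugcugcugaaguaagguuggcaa
Mir16-2: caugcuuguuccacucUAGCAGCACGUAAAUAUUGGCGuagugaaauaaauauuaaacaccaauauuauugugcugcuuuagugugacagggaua

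miR-16-5p had 6913190 reads listed under mir-16-1 and 6902280 under mir-16-2 over the 36 libraries, and these are essentially the same reads counted for each hairpin. The opposite strands do differ. miR-16-1-3p exceeded miR-16-2-3p in 36 of 36 libraries, with a read ratio between 1.15 and 3.46 and a median of 1.84. For miR-15b both strands are members, and the hairpin is shown with both in capitals, the 5p strand first.

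Mir15b: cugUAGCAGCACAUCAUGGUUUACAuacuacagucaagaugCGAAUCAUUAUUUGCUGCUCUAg

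Libraries held 12569939 to 32663566 miRNA reads (median 24008082), of which 31.4% to 81.0% were miR-10a-5p or miR-10b-5p. Because of this, levels are given as normalised CPM, the counts divided by an effective library total, which was set with trimmed mean of M values (TMM) factors within each model, and brought to one common total. Levels of the Pkd1 and Pkd2 models are therefore on separate scales and are not compared. Mature strands of 21 or 22 bases are read whole, and counts were not divided by length. Labels give no batch, sex or litter. The kidney miRNAs fixed as a check of the tissue were present in every library, the least abundant being miR-200c-3p with at least 657 reads.

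miR-16-5p, the most abundant member, stood between rank 11 and rank 29 among the miRNAs of a library and held 83.6% to 90.4% of the reads of the 6 members (median 87.7%). The 6 members together made up 0.298% to 1.77% of the reads of a library (median 0.888%). miR-16-5p was counted 38622 to 458103 times per library, with a median level of 4796 normalised CPM over the 18 Pkd1 libraries and 10302 over the 18 Pkd2 libraries. The order of the other members was not the same in both models. The Pkd1 medians were 227 CPM for miR-15b-5p, 219 for miR-15a-5p, 133 for miR-195a-5p, 91.8 for miR-497a-5p and 44.5 for miR-15b-3p, and miR-15b-5p had the higher mean of the first pair in 5 of 6 Pkd1 groups, P7 KO being the exception. The Pkd2 medians were 440.1 CPM for miR-15a-5p, 300.3 for miR-15b-5p, 297 for miR-195a-5p, 247 for miR-497a-5p and 37.5 for miR-15b-3p. miR-15b-3p was the lowest member in each group but the Pkd1 groups at P1, where miR-497a-5p was lower, with a mean of 36.6 ± 5.87 CPM (SD, n = 3) against 43.6 ± 5.47 in WT. The smallest count of any member was 131 reads, of miR-15b-3p, so no member was near the limit of detection.

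Within a library the main strand far exceeded the other strand of the same hairpin, except for miR-15b. Over all libraries the ratio of main to other strand was 392 for miR-497a, 371 for miR-16 with both opposite strands summed, 101 for miR-15a and 32.3 for miR-195a. For miR-15b it was 6.63.

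**Figure D1:**
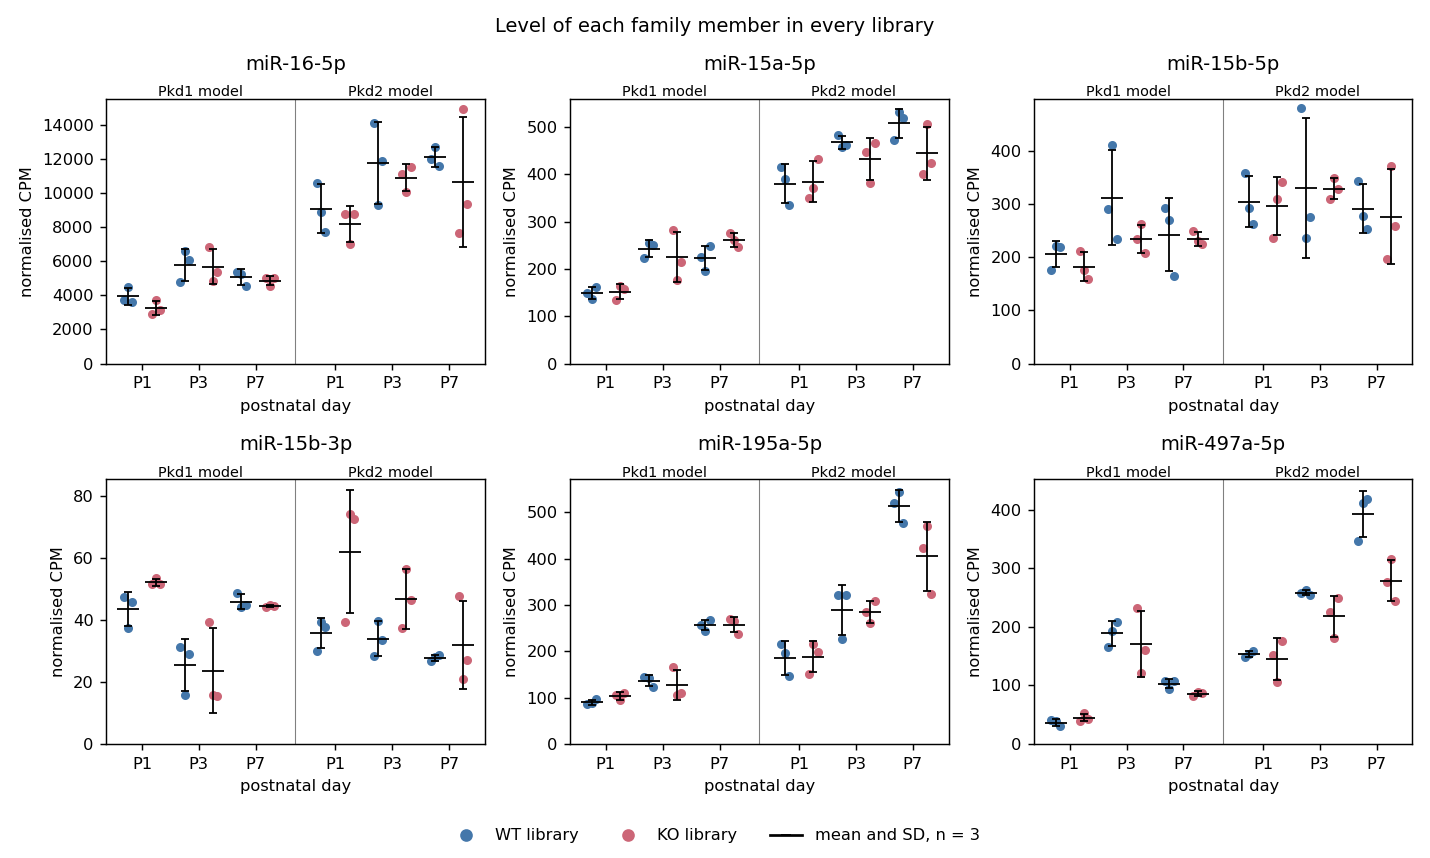
Normalised CPM (linear axes from 0) of the 6 members in each of the 36 libraries, by postnatal day, model and genotype, with the mean and SD of 3 libraries as bars. miR-195a-5p in WT libraries lay at 85.7 to 96.4 CPM at P1 and 245 to 267 CPM at P7 in the Pkd1 model, and miR-497a-5p of that model was highest at P3 in both genotypes.

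How the family changes while a kidney with intact Pkd1 and Pkd2 matures was measured by WT at P7 against WT at P1. miR-195a-5p and miR-497a-5p rose in both models, by between 2.56-fold and 2.84-fold, and miR-15a-5p by 1.50-fold for Pkd1 and 1.34-fold for Pkd2, a direction that turned for miR-15a-5p when libraries were scaled by their totals alone. miR-16-5p and both strands of miR-15b did not pass the test. Thus 3 of 6 members were called in each model, all upward, where 10.3% of the 706 miRNAs tested in the Pkd1 model and 11.4% of the 746 tested in the Pkd2 model were called upward, 11.2% and 16.9% downward, and 21.5% and 28.3% in either direction. The median log2 fold change was 0.47 over the 6 members and -0.027 over all miRNAs tested for Pkd1, and 0.42 and -0.057 for Pkd2. Calls are at an adjusted p under 0.05 in edgeR's quasi-likelihood test with Benjamini-Hochberg adjustment over all miRNAs tested. The balance of calls rests on the scaling. With library totals alone 0 of 6 members were called for Pkd1, against 0.567% of all miRNAs upward and 18.7% downward, and 1 of 6, downward, for Pkd2, against 0.804% upward and 29% downward.

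miR-195a-5p had 85.7, 87.7 and 96.4 CPM in the Pkd1 WT libraries at P1, 144, 143 and 123 at P3 and 256, 245 and 267 at P7. Every P7 library exceeded every P1 library. The log2 fold change of P7 against P1 was 1.51 (SE 0.17), with an adjusted p of 3.12e-05 in edgeR's quasi-likelihood test. WT libraries of the Pkd2 model held 216, 196 and 146 CPM at P1, 320.4, 227 and 321 at P3 and 519, 545 and 478 at P7. There the groups at P1 and P7 were again apart, and the log2 fold change was 1.47 (SE 0.20, adjusted p = 0.000118 by edgeR).

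miR-497a-5p, from the neighbouring hairpin, had 40.1, 39.7 and 29.8 CPM at P1, 166, 192 and 209 at P3 and 108, 94.0 and 107 at P7 in Pkd1 WT libraries. The P3 libraries were the highest of the 3 ages, and P7 was above P1 without overlap. From P1 to P7 the log2 fold change was 1.49 (SE 0.21, adjusted p = 0.000406 by edgeR). In Pkd2 WT libraries the level climbed in age order, with 148, 153 and 158 CPM at P1, 258, 264 and 254 at P3 and 348, 412 and 419.6 at P7, and no 2 ages overlapped. The log2 fold change there was 1.36 (SE 0.18, adjusted p = 0.000103 by edgeR). With any 1 WT library left out, both miRNAs stayed called in both models, with log2 fold changes from 1.32 to 1.59 for miR-195a-5p and 1.33 to 1.47 for miR-497a-5p in the Pkd2 model, and 1.44 to 1.56 and 1.36 to 1.57 in the Pkd1 model. When libraries were scaled by their totals alone, the median over all miRNAs fell by 0.68 (Pkd1 model) and 0.78 (Pkd2 model) on the log2 scale, the rises were 0.87 and 0.83 for Pkd1 and 0.76 and 0.66 for Pkd2, and none of these 4 was called.

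miR-15a-5p had 149, 136 and 162 CPM at P1 and 226, 196 and 248 at P7 in Pkd1 WT libraries, and 415, 389.8 and 334 against 474, 532 and 519.6 in Pkd2 WT libraries. Both ages were apart in both models. The log2 fold change was 0.59 (SE 0.17, adjusted p = 0.0265 by edgeR) and 0.42 (SE 0.15, adjusted p = 0.0393 by edgeR), but with library totals alone it turned to -0.038 and -0.28. The call was also sensitive to single libraries. The edgeR adjusted p in the Pkd1 model became 0.0597 without replicate 1 and 0.0754 without replicate 2 at P1, and 0.0677 without replicate 1 and 0.0812 without replicate 3 at P7. For the Pkd2 model the edgeR adjusted p was 0.0796 and 0.172 without replicates 2 and 3 at P1, and 0.0506, 0.124 and 0.0729 without replicates 1, 2 and 3 at P7.

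miR-16-5p, the partner of miR-15a and miR-15b in their transcripts, had 3731, 4482 and 3596 CPM at P1 and 5390, 5246 and 4531 at P7 in Pkd1 WT libraries. In Pkd2 WT libraries the values were 10580, 8889 and 7718 at P1 and 11982, 12712 and 11566 at P7. The ages did not overlap in either model, yet the log2 fold changes of 0.36 (SE 0.17, adjusted p = 0.133 by edgeR) and 0.42 (SE 0.22, adjusted p = 0.172 by edgeR) did not pass, and with library totals alone they were -0.32 and -0.29. For comparison, 33.1% (Pkd1) and 49.9% (Pkd2) of miRNAs tested had WT groups at P1 and P7 that did not overlap, as did 4 and 5 of the 6 members.

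miR-15b-5p showed no difference past the test, with 177, 221 and 219.9 CPM at P1 and 292, 269.9 and 165 at P7 in Pkd1 WT libraries. Its log2 fold change was 0.24 (SE 0.23) there and -0.063 (SE 0.27) in the Pkd2 model, where the levels were 357, 292 and 263 at P1 and 343, 277 and 254 at P7. With library totals alone these values were -0.51 and -0.80, and the fall in the Pkd2 model was then called (adjusted p = 0.0356 by edgeR). The other strand, miR-15b-3p, gave 0.072 (SE 0.31) and -0.36 (SE 0.29) on the log2 scale, neither past the test.

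The same interval was then compared in KO kidneys, whose cysts grow between P1 and P7. miR-195a-5p and miR-497a-5p rose in both models, by between 1.92-fold and 2.47-fold, a direction that turned for miR-497a-5p with library totals alone. In the Pkd1 model 4 of 6 members were called, all upward, against 10.1% of all miRNAs tested called upward, 7.08% downward and 17.1% in either direction. In the Pkd2 model 2 of 6 were called upward and 1 downward, against 11.8% upward, 12.6% downward and 24.4% in either direction. With library totals alone the Pkd1 count was 0 of 6, against 0.425% of all miRNAs upward and 26.8% downward, and the Pkd2 count was 2 of 6, both downward, against 0.402% upward and 35.3% downward. Groups at P1 and P7 did not overlap for 6 of 6 members for Pkd1 (49.4% of all miRNAs tested) and 2 of 6 for Pkd2 (31.8%). The median log2 fold change was 0.68 over the members and -0.046 over all miRNAs tested for Pkd1, and 0.29 and -0.069 for Pkd2.

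KO libraries of the Pkd1 model held 106, 94.9 and 111 CPM of miR-195a-5p at P1 and 269, 265 and 238 at P7, which did not overlap, with the log2 fold change at 1.31 (SE 0.17, adjusted p = 0.000102 by edgeR). Those of the Pkd2 model held 151, 216 and 198 at P1 and 422, 469.9 and 323 at P7, the log2 fold change being 1.11 (SE 0.20, adjusted p = 0.00125 by edgeR). miR-497a-5p followed, with 39.8, 52.3 and 42.8 CPM against 82.5, 89.5 and 86.4 for Pkd1 and 152, 106 and 176 against 277, 316 and 245 for Pkd2. Its log2 fold changes were 0.94 (SE 0.21, adjusted p = 0.00884 by edgeR) and 0.95 (SE 0.18, adjusted p = 0.00174 by edgeR). With library totals alone the median over all miRNAs fell by 1.16 and 0.97 on the log2 scale, miR-195a-5p changed by 0.18 and 0.14 and miR-497a-5p by -0.19 and -0.040, none of them called.

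miR-15a-5p rose in Pkd1 KO kidneys, from 134, 164 and 157 CPM at P1 to 276, 261 and 247 at P7, with the log2 fold change at 0.78 (SE 0.17, adjusted p = 0.00665 by edgeR), which became -0.35 with library totals alone. The Pkd2 KO groups overlapped, and the value was 0.21 (SE 0.15, adjusted p = 0.315 by edgeR). miR-16-5p had 2927, 3722 and 3162 CPM at P1 and 5034, 4548 and 4989 at P7 in Pkd1 KO libraries, the log2 fold change being 0.57 (SE 0.17, adjusted p = 0.0323 by edgeR), which turned to -0.58 with library totals alone. This call was lost without replicate 1 or 3 at P1 (adjusted p = 0.123 and 0.0945 by edgeR) and without replicate 1 or 3 at P7 (adjusted p = 0.103 and 0.0847 by edgeR). The Pkd2 KO value of miR-16-5p was 0.38 (SE 0.22, adjusted p = 0.221 by edgeR), and with library totals alone it was -0.71.

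With TMM scaling and no library left out, miR-15b-3p was the only member called downward in any comparison, in Pkd2 KO kidneys. It had 39.3, 74.3 and 72.7 CPM at P1 and 47.8, 20.9 and 27.2 at P7, so that replicate 1 was the lowest library at P1 and the highest at P7, and the groups overlapped. The log2 fold change was -0.95 (SE 0.29, adjusted p = 0.0257 by edgeR). The adjusted p was 0.0855 and 0.101 in edgeR without replicate 2 or 3 at P1, and 0.0762 and 0.077 without replicate 2 or 3 at P7. miR-15b-5p from the same hairpin gave -0.098 (SE 0.27) in the same comparison, and -1.18 with library totals alone, which was then called (adjusted p = 0.00576 by edgeR).

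**Figure D2:**
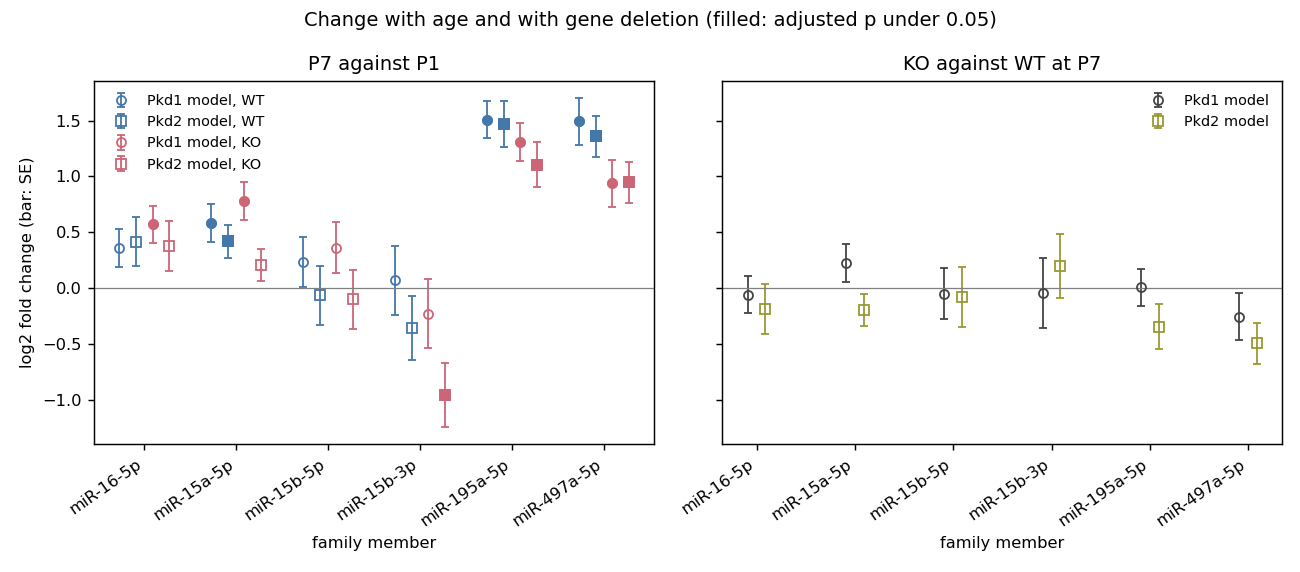
Log2 fold change of the 6 members, with its SE as bars, for P7 against P1 in WT and KO kidneys (left) and for KO against WT at P7 (right), with filled symbols where the edgeR adjusted p was under 0.05. miR-195a-5p and miR-497a-5p lie at 0.94 to 1.51 in the left panel and are filled throughout, no symbol is filled in the right panel, and all values rest on TMM scaling. With library totals alone 6 of the filled rises turn below 0, those of miR-15a-5p in both WT groups and in Pkd1 KO, of miR-16-5p in Pkd1 KO and of miR-497a-5p in KO of both models.

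Loss of Pkd1 or Pkd2 from the collecting duct was addressed by KO against WT at each age. No member was called at any age in either model by edgeR's quasi-likelihood test, against 0% of all miRNAs tested called at P1 and P3 in both models, 0.425% at P7 for Pkd1 (all upward) and 12.6% at P7 for Pkd2 (8.98% upward, 3.62% downward). At an unadjusted p under 0.05 the count of members was 0 at every age in the Pkd1 model, where 8.36%, 9.07% and 10.2% of all miRNAs tested passed at P1, P3 and P7. In the Pkd2 model it was 1, 0 and 1, against 5.5%, 1.47% and 29%. Groups did not overlap for 1, 0 and 1 of the 6 members at P1, P3 and P7 for Pkd1 and for 0, 1 and 2 for Pkd2, against 19.8%, 11.9% and 16.3% and then 13.5%, 4.69% and 25.2% of all miRNAs tested. DESeq2 called 0 members at each age for Pkd1, against 1.27%, 1.27% and 2.41% of all miRNAs tested, and 0, 0 and 1 for Pkd2, against 0%, 0% and 21%. The log2 fold changes of the 6 members ran from -0.27 to 0.30 at P1, -0.41 to -0.029 at P3 and -0.26 to 0.23 at P7 in the Pkd1 model. The Pkd2 ranges were -0.15 to 0.80 at P1, -0.24 to 0.46 at P3 and -0.49 to 0.20 at P7.

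The member nearest to a call was miR-497a-5p at P7 in the Pkd2 model. KO libraries had 277, 316 and 245 CPM and WT libraries 348, 412 and 419.6, with every KO library below every WT library. The log2 fold change was -0.49 (SE 0.18), that is 0.710 of the WT level, with an adjusted p of 0.0811 in edgeR's quasi-likelihood test. DESeq2 gave -0.53 with an adjusted p of 0.0198, and edgeR without KO replicate 2 gave -0.63 with an adjusted p of 0.0412. Its neighbour miR-195a-5p was likewise lower in every KO library than in any WT library, with 422, 469.9 and 323 against 519, 545 and 478 CPM and the log2 fold change was -0.34 (SE 0.20, adjusted p = 0.279 by edgeR). Erythroid miRNAs moved in the same libraries: 4 of 4 on the list were higher in KO, 1 of them past the test, and their summed level was 4355 to 6919 CPM in KO against 2661 to 3316 CPM in WT, with none of the 4 at 0 in any library. The 5 muscle markers tested were higher in KO too, none past the test, with a summed level of 33.3 to 132 CPM against 21.4 to 23.8 CPM. Of the kidney list 1 of 8 rose and 3 fell past the test in the same comparison. Of 4 leukocyte markers 3 were higher in KO, as were 1 of 3 vascular markers and the liver marker, none of them past the test. Their part in the values of miR-497a-5p and miR-195a-5p was not tested.

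In the Pkd1 model at P7 miR-497a-5p was also lower in every KO library, with 82.5, 89.5 and 86.4 CPM against 108, 94.0 and 107, and the log2 fold change was -0.26 (SE 0.21, adjusted p = 0.769 by edgeR). miR-195a-5p gave 0.0094 (SE 0.16) there, with 269, 265 and 238 CPM in KO and 256, 245 and 267 in WT. miR-16-5p, with most of the reads of the family, had 5034, 4548 and 4989 CPM in KO against 5390, 5246 and 4531 in WT of the Pkd1 model and 7644, 14889 and 9360 against 11982, 12712 and 11566 in the Pkd2 model. Its log2 fold changes were -0.058 (SE 0.17) and -0.19 (SE 0.22), and Pkd2 KO replicate 2 was the highest of the 18 libraries of its model while the other KO libraries of its group lay below the WT group.

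The Pkd2 model at P1 held the other small unadjusted p. miR-15b-3p had 39.3, 74.3 and 72.7 CPM in KO and 30.2, 39.5 and 37.6 in WT libraries, where KO replicate 1 fell within the WT range and the other KO libraries were above it. The log2 fold change was 0.80 (SE 0.29), with an unadjusted p of 0.0136 and an adjusted p of 0.886 in edgeR's quasi-likelihood test.

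Whether the KO effect changed between P1 and P7 was tested by its interaction, which called 0 of 6 members in each model at adjusted p and 0 at unadjusted p under 0.05, against 0.142% (Pkd1 model) and 0.536% (Pkd2 model) of all miRNAs tested called and 12% and 16.9% at unadjusted p. DESeq2 called 0 as well, against 0.708% and 4.42%. The difference of the 2 KO effects, with that at P1 subtracted, was -0.55 (SE 0.30, adjusted p = 0.448 by edgeR) for miR-497a-5p in Pkd1 mice and -0.41 (SE 0.26, adjusted p = 0.434 by edgeR) in the Pkd2 model. A smaller rise of miR-497a-5p in KO than in WT kidneys was therefore not shown. The other values of the Pkd2 model lay from -0.60 for miR-15b-3p to -0.035 for miR-15b-5p.

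Differences between the models were tested with the 36 libraries in 1 fit (775 miRNAs), and 0 of 6 members were called either for the KO effect at P7 (0.387% of all miRNAs tested called) or for the WT change from P1 to P7 (0.258%). At an unadjusted p under 0.05 the count of members was 0 for both, against 12% and 7.1% of all miRNAs tested, and DESeq2 called none, against 0.516% and 0.387%. For the WT change the difference between the models was -0.13 (SE 0.26) for miR-195a-5p and -0.040 (SE 0.26) for miR-497a-5p. The largest difference in KO effect at P7 was that of miR-15a-5p, 0.42 (SE 0.21, adjusted p = 0.419 by edgeR).

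The make-up of the family within a library does not depend on how libraries are scaled. miR-195a-5p held 2.03, 1.75 and 2.32% of the reads of the 6 members in Pkd1 WT libraries at P1 and 4.05, 4.02 and 4.97% at P7. Its share in Pkd2 WT libraries was 1.84, 1.96 and 1.68% at P1 and 3.79, 3.76 and 3.60% at P7. Every WT library at P7 was above every WT library at P1, and the same held in KO kidneys, with 2.23 to 3.06% against 4.09 to 4.87% for Pkd1 and 1.56 to 2.68% against 2.84 to 4.70% for Pkd2. The P3 shares of miR-195a-5p, 1.79 to 2.56% for Pkd1 and 2.04 to 2.43% for Pkd2 over both genotypes, were below all P7 values of their model.

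miR-497a-5p rose from 0.949, 0.794 and 0.718% to 1.70, 1.54 and 1.99% of family reads between P1 and P7 in Pkd1 WT libraries and from 1.26, 1.54 and 1.83% to 2.54, 2.84 and 3.16% in Pkd2 WT libraries, again with no overlap. miR-15b-5p went the other way in the Pkd2 model, from 3.04, 2.93 and 3.04% to 2.50, 1.91 and 1.91% in WT libraries, while its Pkd1 WT shares overlapped. The share of miR-16-5p was 86.7 to 89.6% at P1 and 84.5 to 86.1% at P7 in Pkd1 WT libraries, and 89.2 to 90.1% and 87.2 to 87.6% in Pkd2 WT libraries, lower at P7 without overlap. In KO libraries its shares overlapped, with 84.3 to 87.3% and 83.6 to 85.6% for Pkd1 and 86.7 to 90.4% and 85.0 to 89.8% for Pkd2. The KO shares of miR-15b-5p at P1 and P7 overlapped too in both models, and those of miR-497a-5p did not in either. miR-15a-5p held 2.72% to 4.80% throughout. These shares are a description, and no test was run on them.

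**Figure D3:**
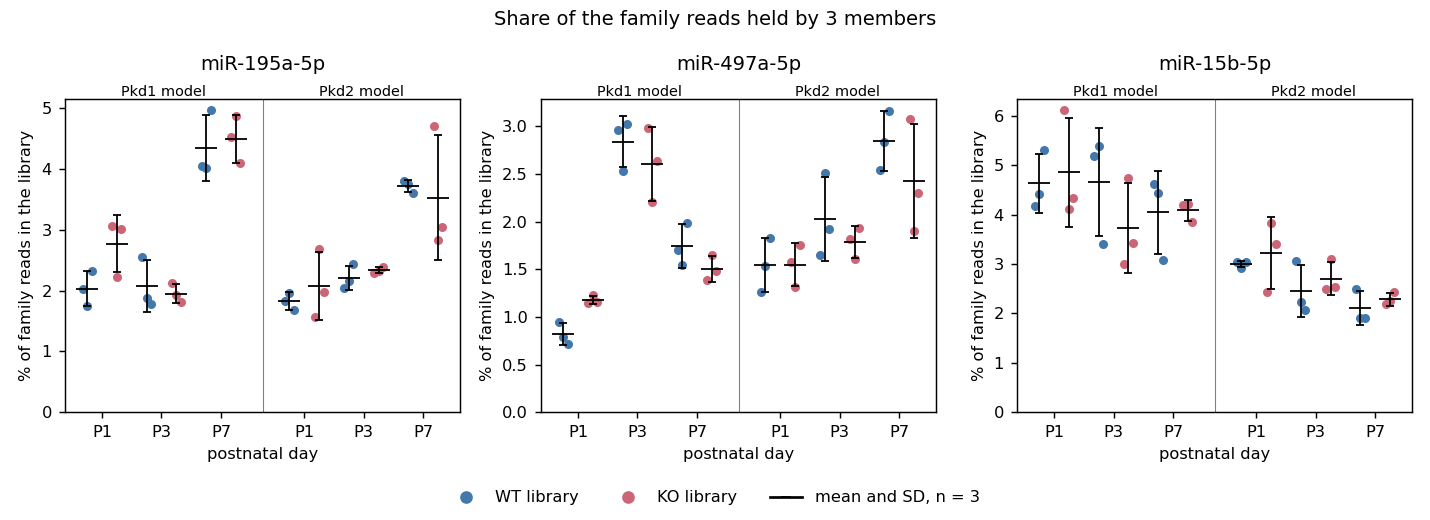
Percent of the reads of the 6 members held by miR-195a-5p, miR-497a-5p and miR-15b-5p in each library, by postnatal day, model and genotype, with mean and SD of 3 libraries (axes from 0). The 12 libraries at P7 hold 2.84 to 4.97% miR-195a-5p, and miR-497a-5p in the Pkd1 model peaks at P3 with 2.20 to 3.03%.

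Pairs of members were also compared within a library by their read ratio. miR-195a-5p and miR-497a-5p, whose hairpins are neighbours, did not keep a fixed ratio. In the Pkd1 model it was 1.81 to 3.23 in the 6 libraries at P1, 0.590 to 0.876 in the 6 at P3 and 2.37 to 3.26 in the 6 at P7, so miR-497a-5p exceeded miR-195a-5p at P3 alone, in both genotypes. The Pkd2 libraries held 0.921 to 2.03 at P1, 0.861 to 1.44 at P3 and 1.14 to 1.53 at P7, with no gap between the ages. The strands of miR-15b were also more unequal in the same 6 libraries, though with overlap, at a 5p to 3p ratio of 5.93 to 25.9 at P3 against 3.09 to 6.11 in the other 12 libraries of the Pkd1 model. Age and any difference in the handling of these libraries cannot be told apart, since the labels name no batch. The comparisons of P7 with P1 contrast none of the P3 libraries, which enter through the TMM factors, the filter on low counts and the shared estimate of spread. With only the compared libraries fitted, miR-195a-5p and miR-497a-5p stayed called from P1 to P7. The calls of miR-15a-5p in Pkd1 WT and miR-15b-3p in Pkd2 KO were then lost (adjusted p = 0.0847 and 0.138 by edgeR).

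The ratios were tested across both models at once, with libraries permuted within each model (exact two-sided permutation test, 400 splits, smallest possible p 0.005, Benjamini-Hochberg over 6 tests). None passed. The log2 ratio of miR-195a-5p to miR-497a-5p was 0.20 higher in KO than in WT at P7 on average over the models (0.26 for Pkd1, 0.14 for Pkd2, exact permutation p = 0.035, adjusted p = 0.165), and it differed by 0.069 between WT at P7 and P1 (exact permutation p = 0.63, adjusted p = 0.805). The log2 ratio of miR-15a-5p to miR-15b-5p, which come from different chromosomes, was 0.43 higher at P7 than at P1 in WT (exact permutation p = 0.055, adjusted p = 0.165) and 0.077 higher in KO than in WT at P7 (exact permutation p = 0.705, adjusted p = 0.805). For the miR-15b strands the differences in log2 ratio were 0.20 (exact permutation p = 0.305, adjusted p = 0.61) and -0.095 (exact permutation p = 0.805, adjusted p = 0.805). The comparisons of age and of genotype share the WT libraries at P7.

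**Figure D4:**
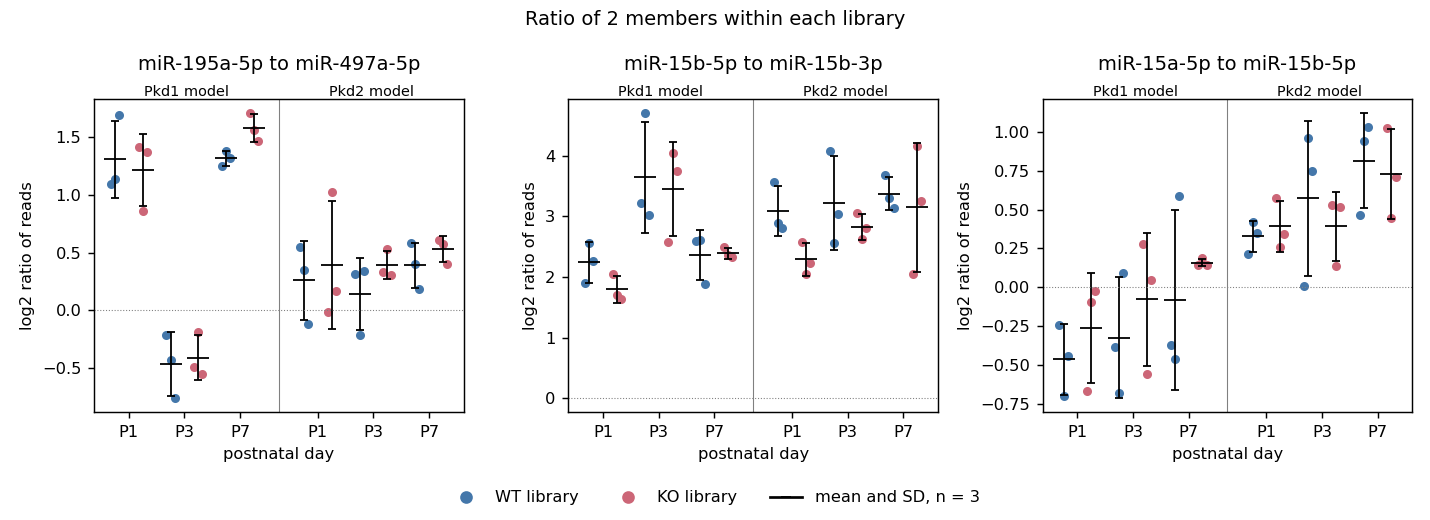
Log2 ratio of the reads of 2 members within each library, by postnatal day, model and genotype, with mean and SD of 3 libraries, for miR-195a-5p to miR-497a-5p, miR-15b-5p to miR-15b-3p and miR-15a-5p to miR-15b-5p. In the first panel the 6 Pkd1 libraries at P3 lie below 0 and the 12 at P1 and P7 above 0.

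Other strands of the same hairpins and further miRNAs of the seed family, 12 in all, were examined beside the members. Of these, 7 had enough reads to be tested. miR-322-5p, from a cluster on the X chromosome, and miR-503-5p of the same cluster are shown for their seeds, with bases 2 to 8 in capitals.

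miR-322-5p: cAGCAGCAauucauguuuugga
miR-503-5p: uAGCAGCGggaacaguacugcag

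miR-322-5p carries the seed of the family and differs from the 5 main strands just behind it, and miR-503-5p differs within the seed at its last base. miR-322-5p was the second most abundant carrier of the seed, with 1680032 reads over all libraries, and miR-503-5p had 21689. No relative was called by edgeR in any comparison of KO with WT or in either interaction. Both passed the test upward from P1 to P7 in Pkd1 KO kidneys. miR-322-5p had 768, 872 and 780.3 CPM at P1 and 2810, 1723 and 2116 at P7, with the log2 fold change at 1.46 (SE 0.40, adjusted p = 0.0228 by edgeR). miR-503-5p had 16.4, 16.7 and 21.4 at P1 and 28.9, 33.3 and 31.2 at P7, the log2 fold change being 0.78 (SE 0.21, adjusted p = 0.0202 by edgeR). The 3p strand of miR-195a rose in Pkd2 WT kidneys, from between 5.04 and 6.95 CPM at P1 to between 9.42 and 11.1 CPM at P7. The log2 fold change was 0.73 (SE 0.21, adjusted p = 0.0167 by edgeR). miR-195a-5p rose there too, and also in Pkd1 WT, Pkd1 KO and Pkd2 KO. In those groups the 3p strand did not pass the test (adjusted p = 0.251, 0.0922 and 0.138 by edgeR). Outside Pkd1 KO the same interval gave 0.60 (Pkd1 WT), 0.70 (Pkd2 WT) and 1.38 (Pkd2 KO) for miR-322-5p and -0.28, -0.47 and -0.23 for miR-503-5p. None of these values passed the test. For miR-503-5p in the Pkd1 model the log2 fold change of KO against WT at P7 was 0.84 (SE 0.21, adjusted p = 0.0882 by edgeR), with no overlap between the groups, and the difference of its KO effect at P7 from that at P1 was 1.06 (SE 0.29, adjusted p = 0.266 by edgeR). With library totals alone miR-322-5p was at 0.28, and the direction of miR-503-5p and miR-195a-3p turned, to -0.34 and -0.0090. The call of miR-322-5p was lost without replicate 1, 2 or 3 at P1 or replicate 1 at P7 (adjusted p = 0.0818, 0.0691, 0.0677 and 0.0976 by edgeR), that of miR-503-5p without replicate 1 or 2 at P1 or replicate 2 at P7 (adjusted p = 0.0880, 0.0742 and 0.0579 by edgeR), and that of miR-195a-3p without replicate 1 at P1 (adjusted p = 0.0734 by edgeR). Without the filter on low counts the calls of miR-503-5p and miR-195a-3p were lost as well (adjusted p = 0.0627 and 0.0730 by edgeR). The other relatives tested were miR-15a-3p, miR-16-1-3p, miR-16-2-3p and miR-497a-3p. miR-195b had 4 reads over all libraries, miR-497b had 22, and miR-6342, miR-6353 and miR-6419 had none, although all but miR-497b carry the first 6 bases of the seed.

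The members did not vary as a single group across libraries. Over the 36 libraries, on log2 normalised CPM scaled together, Spearman's rho was 0.83 between miR-15a-5p and miR-16-5p, 0.79 between miR-16-5p and miR-497a-5p and 0.54 between miR-195a-5p and miR-497a-5p. It was -0.058 between miR-15a-5p and miR-15b-5p, -0.14 between the strands of miR-15b and -0.80 between miR-15b-3p and miR-16-5p. These values describe libraries that share models, ages and depth, and carry no test.

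Among 602 miRNAs outside the family with a mean of at least 10 counts in each model, those most like each member over the 36 libraries were named by Spearman's rho. For miR-16-5p they were miR-802-5p (0.90), miR-425-5p (0.84) and miR-200b-3p (0.84), and for miR-15a-5p miR-802-5p (0.89), miR-194-5p (0.88) and miR-30b-5p (0.86). miR-195a-5p was most like miR-24-1-5p (0.86), miR-551b-3p (0.86) and miR-1839-3p (0.83). miR-497a-5p was most like miR-339-3p (0.92), miR-30b-5p (0.85) and miR-150-5p (0.85). The nearest to miR-15b-5p were miR-361-3p (0.76), miR-423-5p (0.71) and miR-221-5p (0.71), lower values than for the other members, and those nearest to miR-15b-3p were let-7i-3p (0.93), miR-296-5p (0.85) and miR-328-3p (0.80).

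Markers of the cell types that a kidney can hold moved over the same interval as miR-195a-5p and miR-497a-5p. From P1 to P7 in WT libraries, 3 of 8 kidney markers rose for Pkd1 and 5 of 8 for Pkd2, with none down. Of 4 leukocyte markers 4 rose for Pkd1 and 1 for Pkd2, and of 3 vascular and smooth muscle markers 2 and 1 rose. Of 4 erythroid markers 1 rose for Pkd1 and 0 for Pkd2. In KO libraries over the same interval 1 and 5 of 8 kidney markers, 2 and 1 of 4 leukocyte markers, 1 and 2 of 4 erythroid markers and 0 and 0 of 3 vascular markers rose, and none of these fell. Over all miRNAs tested, 10.3% and 11.4% were called upward in WT and 10.1% and 11.8% in KO. The marker lists were tested with TMM scaling only. With library totals alone, 0.567% and 0.804% of all miRNAs were called upward in WT and 0.425% and 0.402% in KO. Summed leukocyte levels were 109 to 155 CPM at P1 and 245 to 368 at P7 in Pkd1 WT libraries, and 318 to 420.0 and 387 to 513 in Pkd2 WT libraries. In KO libraries they were 130.3 to 169 at P1 and 243 to 313 at P7 for Pkd1, and 329 to 381 and 458 to 631 for Pkd2. Summed vascular levels in WT were 24235 to 32166 and 40081 to 77095 CPM, and 40438 to 47097 and 54241 to 85734. In KO they were 35955 to 42702 CPM at P1 and 50028 to 68323 at P7 for Pkd1. The Pkd2 KO sums were 36656 to 40239 and 52226 to 101926 CPM. All 3 vascular markers had a positive log2 fold change in KO of both models, though none passed the test. No marker of these 4 lists was at 0 in any library. Skeletal and cardiac muscle markers went down in Pkd1 WT libraries, 5 of 5 tested past the test. Their summed level was 14.6 to 1175 CPM at P1 (median 40.7) and 28.9 to 45.7 at P7. In Pkd1 KO libraries 0 of 5 were called in either direction, with sums of 16.7 to 45.9 CPM at P1 and 26.2 to 41.4 at P7. Of this list miR-206-3p, miR-208a-3p and miR-499-5p were at 0 in 5, 20 and 3 of the 36 libraries. The highest of these sums belonged to P1 WT replicate 1, without which miR-195a-5p and miR-497a-5p rose by 1.47 and 1.57 on the log2 scale. The liver marker miR-122-5p fell past the test in Pkd2 WT libraries, with 11.3 to 341 CPM at P1 (median 13.1) and 1.04 to 3.64 at P7. In Pkd2 KO libraries it was not called, with 24.7 to 53.6 CPM at P1 and 3.09 to 17.5 at P7. The part of these cell types in the values of the family was not tested.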

How the data were processed

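Small RNA was sequenced from total kidney RNA of 36 libraries. After adaptor trimming, the authors used only reads over 17 bases and ran miRDeep2 (version not given in the sources used here) with miRBase 21 and mm10. CASAVA 1.8.2 is named in the submitters' processing notes. The authors deposited raw read counts, which are whole numbers without normalization, per mature miRNA and hairpin. For a miRNA listed under several hairpins (7 entries for the 6 members) the entry with the highest total was used. Groups follow the sample labels.

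The tests used edgeR 4.0.16 (R 4.3.3): TMM factors, at least 10 counts in at least 3 libraries, quasi-likelihood F-tests on 1 term per group over the 18 libraries of a model, and Benjamini-Hochberg adjustment over 706 (Pkd1) or 746 (Pkd2) miRNAs. SE is the log2 fold change divided by the square root of F. DESeq2 1.42.0, RLE factors, library totals, no filter, a replicate block, leaving out miR-10 and leaving out each library of the groups compared were alternatives. Sequences came from RefSeq and gene positions from GENCODE M21, both on GRCm38, the build called mm10. Every member, and every relative called, was named, with the 3 most alike miRNAs. The members and lists were chosen with earlier results of these data known. Replicate pairs differed by more than counting noise (smallest chi-square per degree of freedom 38.0). Pkd1 and Pkd2 messenger RNAs were not analysed here.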

Additional observations from a re-analysis of the deposited data

How the results depend on the processing

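The calls of miR-195a-5p and miR-497a-5p in P7 against P1, WT and KO, in both models, held under every alternative except library totals only, which removes the TMM scaling and lowers the median of all miRNAs. With library totals only the count of members called was 0 for Pkd1 WT, 0 for Pkd1 KO, 1 for Pkd2 WT (miR-15b-5p, downward) and 2 for Pkd2 KO (both strands of miR-15b, downward), while 19.3%, 27.2%, 29.8% and 35.7% of all miRNAs were called, nearly all downward. For KO against WT at P7 in the Pkd2 model the count of 0 became 1 with DESeq2 (21% of all miRNAs called), and ranged from 0 to 1 with each library left out in turn. The call of miR-15a-5p in WT was also lost without the filter on low counts (adjusted p 0.147 and 0.231) and with miR-10a-5p and miR-10b-5p left out (0.0707 and 0.0647), and in the Pkd1 model with only the compared libraries fitted (0.0847). The call of miR-16-5p in Pkd1 KO was lost with RLE size factors (0.0541) and without the filter (0.0757), and that of miR-15b-3p in Pkd2 KO with only the compared libraries fitted (0.138). The causes were not tested. The labels do not say whether the replicate numbers pair the libraries. Deviations of same-numbered libraries correlated by -0.49 to 0.46, over 0.1 in 7 of 18 pairs, which cannot decide it. With the replicate block miR-15a-5p in Pkd2 WT was not called (0.42, adjusted p 0.0625) and no other call of a member changed. Depth does not limit the members, whose lowest count was 131. Over all 6 members and all comparisons, with the ratios, 69 values turned direction, 15 lost a call, 3 gained one and 597 did neither under alternatives that keep all libraries, and 73, 17, 1 and 629 with each library left out. Directions of values given in the report that turned are given as log2 values; called in the report among them were those of miR-15a-5p in WT and in Pkd1 KO, miR-16-5p in Pkd1 KO miR-497a-5p in KO of both models, miR-503-5p in Pkd1 KO and miR-195a-3p in Pkd2 WT, all with library totals only. With RLE size factors, turned values were -0.025 for miR-195a-5p in Pkd1 P7 KO against WT and 0.066 for miR-497a-5p in Pkd1 minus Pkd2, WT P7 against P1. With library totals only, turned values were 0.16 for miR-16-5p in Pkd1 P1 KO against WT, 0.10 for miR-16-5p in Pkd1 P3 KO against WT, -0.068 for miR-195a-5p in Pkd1 P7 KO against WT and -0.038 for miR-15a-5p, -0.51 for miR-15b-5p, -0.61 for miR-15b-3p and -0.32 for miR-16-5p in Pkd1 WT P7 against P1. Further such values were -0.35 for miR-15a-5p, -0.78 for miR-15b-5p, -0.58 for miR-16-5p, -0.19 for miR-497a-5p and -0.34 for miR-503-5p in Pkd1 KO P7 against P1, 0.082 for miR-16-5p in Pkd2 P1 KO against WT, -0.28 for miR-15a-5p, -0.29 for miR-16-5p and -0.0090 for miR-195a-3p in Pkd2 WT P7 against P1 and -0.78 for miR-15a-5p, -0.71 for miR-16-5p and -0.040 for miR-497a-5p in Pkd2 KO P7 against P1. Further such values were 0.11 for miR-195a-5p and 0.17 for miR-497a-5p in Pkd1 minus Pkd2, WT P7 against P1. With miR-10a-5p and miR-10b-5p left out, turned values were -0.039 for miR-15b-3p in Pkd1 WT P7 against P1 and 0.020 for miR-195a-5p and 0.10 for miR-497a-5p in Pkd1 minus Pkd2, WT P7 against P1. With the DESeq2 Wald test, turned values were -0.025 for miR-195a-5p in Pkd1 P7 KO against WT and 0.067 for miR-497a-5p in Pkd1 minus Pkd2, WT P7 against P1. With no filter on low counts, turned values were -0.0052 for miR-195a-5p in Pkd1 P7 KO against WT and -0.0066 for miR-15b-3p in Pkd1 WT P7 against P1. With counts summed over hairpins, turned values were -0.024 for miR-195a-5p in Pkd1 P7 KO against WT and 0.058 for miR-195a-5p and 0.14 for miR-497a-5p in Pkd1 minus Pkd2, WT P7 against P1. With only the compared libraries fitted, turned values were -0.025 for miR-195a-5p in Pkd1 P7 KO against WT, 0.061 for miR-15b-5p in Pkd2 KO effect P7 minus P1 and 0.079 for miR-497a-5p in Pkd1 minus Pkd2, WT P7 against P1. With each library left out in turn, direction turned within the ranges -0.027 to 0.14 for miR-15b-3p in Pkd1 WT P7 against P1, -0.19 to 0.076 for miR-16-5p in Pkd1 P3 KO against WT, -0.31 to 0.11 for miR-15b-5p in Pkd1 P7 KO against WT, -0.10 to 0.0021 for miR-15b-3p in Pkd1 P7 KO against WT, -0.024 to 0.062 for miR-195a-5p in Pkd1 P7 KO against WT and -0.17 to 0.074 for miR-15b-5p in Pkd2 WT P7 against P1. The next ranges were -0.37 to 0.16 for miR-15b-5p in Pkd2 KO effect P7 minus P1, -0.41 to 0.094 for miR-15b-5p in Pkd2 KO P7 against P1, -0.39 to 0.11 for miR-15b-5p in Pkd2 P7 KO against WT, -0.21 to 0.39 for miR-15b-3p in Pkd2 P7 KO against WT, -0.55 to 0.0032 for miR-16-5p in Pkd2 P7 KO against WT and -0.25 to 0.017 for miR-195a-5p in Pkd1 minus Pkd2, WT P7 against P1. Other ranges were -0.19 to 0.045 for miR-497a-5p in Pkd1 minus Pkd2, WT P7 against P1, -0.025 to 0.17 for the ratio of miR-195a-5p to miR-497a-5p in WT P7 against P1, -0.018 to 0.24 for the ratio of miR-15a-5p to miR-15b-5p in P7 KO against WT and -0.35 to 0.18 for the ratio of miR-15b-5p to miR-15b-3p in P7 KO against WT.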
